A study of Mus musculus with 3 samples.

Results

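The TGF-beta and activin branch of the TGF-beta superfamily was described here through 10 genes chosen by name: the ligand genes Tgfb1, Tgfb2, Tgfb3, Inhba and Inhbb, the receptor genes Tgfbr1, Tgfbr2 and Tgfbr3, and the antagonist genes Fst and Fstl3. All 10 were found among the 32247 gene symbols of the count matrix. The data are unique molecular identifier (UMI) counts per gene and cell barcode from 1 droplet single-cell library of whole mouse uterus at pregnancy day 7.5. Per the labels, females lived with female littermates to an age of 8 weeks, were mated and were dissected on that day, and the tissue was dissociated with trypsin. The labels give no genotype or number of animals for this library. The matrix carries features for the transgene sequences iCre, with 1 UMI, and sfGFP-Myc, with 25 UMIs. The series lists 2 further samples of the same day, of genotypes Prl8a2icre/+ Sun1-GFPLsL/+ and Sun1-GFPLsL/+, which were not analysed here.

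TGF-betas and activins are secreted dimers that bind a type II and a type I receptor kinase on the receiving cell, which then phosphorylate SMAD2 and SMAD3. TGF-betas leave the cell in a latent form that integrins and proteases release, whereas activins are secreted in an active form and are held in check by follistatin, which binds them and blocks the receptor site. In the pregnant mouse uterus the stroma around the implanting embryo becomes decidua, and the uterine loss of follistatin or of the type I TGF-beta receptor is known to impair pregnancy. TGF-beta is also known to act on natural killer (NK) cells, the main lymphocytes of the early decidua.

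With 1 library there is no biological replicate, so there is no test and no p-value. Levels are in CPM, the UMIs of a gene summed over the cells of a group, per 1000000 UMIs of that group. Their 95% intervals are exact Poisson intervals, and those of ratios are exact conditional binomial intervals. All intervals cover counting error only and not the difference between animals. A gene was compared between groups where it had at least 50 UMIs over both sides. To count as higher or lower its ratio had to reach 2-fold, with 1 outside the interval.

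Of 2775 barcodes 1822 cells were kept, with a median of 4519 UMIs, and 1785 of them fell into 20 clusters of 10 classes named by their markers. The names mean cells like the named type (decidual stroma-like, epithelium-like and so on). They were assigned here and may differ from the authors' own. There were 420 cells of undifferentiated stroma, 374 of epithelium, 313 NK and innate lymphoid cells, 262 mononuclear phagocytes and 148 of decidual stroma. The smaller classes held 89 mesothelial, 66 endothelial, 44 T, 37 pericyte and 32 B cells. Median depth ran from 1778 UMIs a cell in B cells to 6839.5 in decidual stroma. The median mitochondrial share was 12.2% in decidual stroma and 3.08% to 5.89% in the other classes. The decidual markers summed to 5634 and 1978 CPM in decidual clusters 1 and 17 against 219 and 366 CPM in undifferentiated clusters 6 and 7, and the decidual enzyme gene Tdo2 alone to 2889 and 1420 against 35.1 and 27.2 CPM. The undifferentiated markers separated the classes far less, at 4117 CPM in decidual and 4510 CPM in undifferentiated stroma. In cluster 17, which had 3 of 8 decidual markers, they summed to 3873 CPM, above its decidual markers and above the 2784 CPM of cluster 6, so its name rests on few genes. The B cell class also led with Siglech and Ccr9, genes of plasmacytoid dendritic cells, and its summed dendritic markers reached 2139 CPM. The mesothelial class had a summed level of stromal markers of 16185 CPM, of which Dcn made up 11314 CPM, and the pericyte class had the smooth muscle markers Acta2 and Myh11 among its leading genes. A further 37 cells stayed unnamed.

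The 5 ligand genes were spread over different classes (plot of UMI shares). NK and innate lymphoid cells held 65.5% and phagocytes 20.7% of the 1066 Tgfb1 UMIs of the named cells. Epithelium held 71.1% of the 1933 Tgfb2 UMIs and 80.5% of the 226 Inhbb UMIs. Undifferentiated stroma held 46.2% of the 262 Tgfb3 UMIs, and decidual stroma 46.4% of the 97 Inhba UMIs. Both stromal classes together carried the antagonist: decidual stroma held 69.6% and undifferentiated stroma 26.8% of the 3931 Fst UMIs. These shares also depend on how many cells of a class were recovered and how deeply they were read. The CPM values are scaled to the UMIs of a class, but within a class deeper cells and clusters weigh more. With each cell given the same weight, Tgfb1 in NK and innate lymphoid cells was at 255 rather than 183 CPM.

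**Figure D1:**
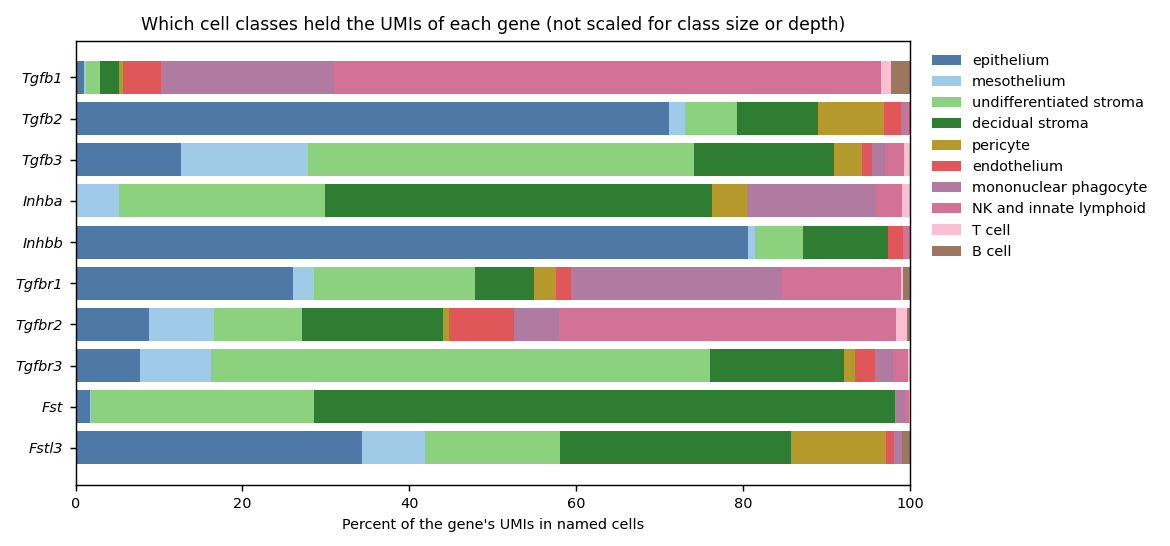
Percent of each gene's UMIs in named cells (x axis) held by each of the 10 classes (colours), for the 10 genes (y axis), not scaled for class size or depth. The bars of Tgfb2 and Inhbb are mostly epithelium (71.1% and 80.5%), that of Tgfb1 mostly NK and innate lymphoid cells (65.5%), and that of Fst almost all stroma.

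The sequences upstream of 4 ligand genes are shown because Tgfb1, Inhba and the pair Tgfb2 and Inhbb had their largest share of UMIs in 3 different classes (NK and innate lymphoid cells, decidual stroma and epithelium). They are the 250 bases before the RefSeq start of each gene (GRCm38.p6), 5′ to 3′ on the gene's own strand, at chr7:25686752-25687001 (plus strand) for Tgfb1, chr1:186705990-186706239 (minus) for Tgfb2, chr13:16011601-16011850 (plus) for Inhba and chr1:119422249-119422498 (minus) for Inhbb. Capitals mark matches on either strand. The GC box was searched as GGGCGG. The element bound by the general transcription machinery near many starts, the TATA box, was searched as TATAAA. The CAGA box, an element of some TGF-beta target promoters, was searched as CAGACA.
Tgfb1: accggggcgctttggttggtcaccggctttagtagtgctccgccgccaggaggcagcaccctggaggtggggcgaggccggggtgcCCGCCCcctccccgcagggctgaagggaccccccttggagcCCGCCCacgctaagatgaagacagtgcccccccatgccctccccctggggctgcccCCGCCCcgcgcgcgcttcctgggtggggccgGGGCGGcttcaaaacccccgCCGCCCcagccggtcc
Tgfb2: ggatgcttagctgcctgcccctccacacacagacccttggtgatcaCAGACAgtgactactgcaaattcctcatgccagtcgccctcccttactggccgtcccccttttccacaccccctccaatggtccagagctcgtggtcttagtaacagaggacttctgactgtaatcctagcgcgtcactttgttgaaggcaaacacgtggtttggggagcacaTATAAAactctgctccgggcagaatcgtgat
Inhba: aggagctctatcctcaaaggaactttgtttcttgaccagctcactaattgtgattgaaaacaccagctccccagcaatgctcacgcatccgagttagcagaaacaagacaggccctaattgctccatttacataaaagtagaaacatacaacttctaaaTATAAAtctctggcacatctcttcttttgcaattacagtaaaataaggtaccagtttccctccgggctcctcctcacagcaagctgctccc
Inhbb: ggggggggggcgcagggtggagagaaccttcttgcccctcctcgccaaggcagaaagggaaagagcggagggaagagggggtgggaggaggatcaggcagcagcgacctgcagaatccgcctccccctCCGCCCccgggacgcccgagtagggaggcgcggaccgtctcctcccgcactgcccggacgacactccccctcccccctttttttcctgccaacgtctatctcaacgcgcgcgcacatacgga
The Tgfb1 window of 300 bases (these 250 and the 50 after the start) was 77.0% G and C with 30 CpG dinucleotides, against medians of 52.7% and 7 over all 32851 promoters in the table. It held 6 GC boxes, beginning 164, 123, 67, 36 and 16 bases before and 11 bases after the start, and no TATA box. The Tgfb2 window held no GC box, a TATA box that begins 31 bases before the start and a CAGA box that begins 204 bases before it. A TATA box began 91 bases before the Inhba start, and the Inhbb window (64.3% G and C) held 1 GC box, 122 bases before the start. Of all promoters 35.7% held a GC box, 13.6% a TATA box and 21% a CAGA box. None of the 8 promoters found for the members (7 genes, 2 of them for Tgfbr1) held the longer motifs that were searched, TGACGTCA (CRE, in 1.79% of all promoters), TGANTCA (AP-1, 7.81%) and GTCTAGAC (SBE, 0.213%). Tgfb3, Tgfbr3 and Fst are named only.

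Tgfb1 (chr7:25687002-25705077, plus strand, GRCm38) encodes TGF-beta 1, and its level was highest in the immune and endothelial classes. It stood at 183 CPM in NK and innate lymphoid cells (95% interval 170 to 197, 698 UMIs), 179.7 CPM in phagocytes (157 to 205) and 311 CPM in the B cell class (201 to 459), the last from only 25 UMIs. T cells had 106 CPM and endothelium 92.8 CPM. The 5 classes of stroma, epithelium, mesothelium and pericytes were all at 19.5 CPM or less, down to 2.15 CPM (1.07 to 3.84) in epithelium. So the 5 immune and endothelial classes lay above the other 5 without overlap of their intervals, while NK cells and phagocytes did not differ (ratio 1.02, 0.875 to 1.19). A Tgfb1 UMI was seen in 68.4% of NK and innate lymphoid cells, at a median depth of 5807 UMIs, and in 2.94% of epithelial cells, at 6494.5 UMIs. With cells thinned to 2000 UMIs these shares were 34.3% of 265 and 0.898% of 334 cells.

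Tgfb2 (chr1:186622792-186705989, minus strand) is the isoform best known from epithelia and developing tissues. Its level was 268 CPM in epithelium (254 to 283, 1374 UMIs), 130.3 CPM in decidual stroma (112 to 150.3) and 74.2 to 79.2 CPM in mesothelium, undifferentiated stroma and endothelium, which could not be told apart. In phagocytes, NK and innate lymphoid cells and T cells it was 6.50, 2.62 and 0 CPM, the last with an upper limit of 24.4 CPM from 0 of 123032 UMIs. Tgfb1 and Tgfb2 thus had opposite ends in epithelium and NK cells. Pericytes stood highest with 589 CPM (499 to 691, 151 UMIs), but 54 of those UMIs lay in 1 of 37 cells and the level was 406 CPM without it.

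Tgfb3 (chr12:86056745-86079041, minus strand) was highest in mesothelium, at 80.2 CPM (57.3 to 109), and undifferentiated stroma, at 78.3 CPM (65.0 to 93.6), classes that also held Tgfb2. These did not differ (ratio 1.02, 0.698 to 1.48). Pericytes followed with 35.1 CPM and decidual stroma with 30.5 CPM, and the other 6 classes were at 16.3 CPM or less. The gene overlaps Ttll5 on the opposite strand, and the sources used here do not give how reads on such overlaps were counted.

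The activin subunit genes were weakly detected, and each had a different place. Inhba (chr13:16011851-16031621, plus strand) encodes the beta A subunit of activin A and stood at 31.2 CPM in decidual stroma (22.7 to 41.7, 45 UMIs). Pericytes, undifferentiated stroma, phagocytes and mesothelium had 15.6, 15.5, 12.2 and 10.0 CPM, and no neighbours in the whole order differed beyond counting error. Of the 45 decidual UMIs 10 were in 1 cell, and of the 15 phagocyte UMIs 10 were in 1 cell. In epithelium no Inhba UMI was found among 5118984, which allows up to 0.586 CPM. Inhbb (chr1:119415465-119422248, minus strand) encodes the beta B subunit of activin B and had its highest level in the epithelium instead. It stood at 35.6 CPM in epithelium (30.6 to 41.1, 182 UMIs), 15.9 CPM in decidual stroma (10.1 to 23.9) and 8.42 CPM in undifferentiated stroma. Phagocytes, pericytes, T cells and B cells had 0 UMIs, which allows up to 2.44, 11.7, 24.4 and 37.3 CPM. The limits in T and B cells lie above the decidual level, and that in B cells also above the epithelial level. An Inhbb UMI was seen in 27.5% of epithelial cells and in 0.639% of the 313 NK and innate lymphoid cells. Inha, whose product turns these subunits into inhibins, had 20 UMIs in all named cells and 0 in epithelium.

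**Figure D2:**
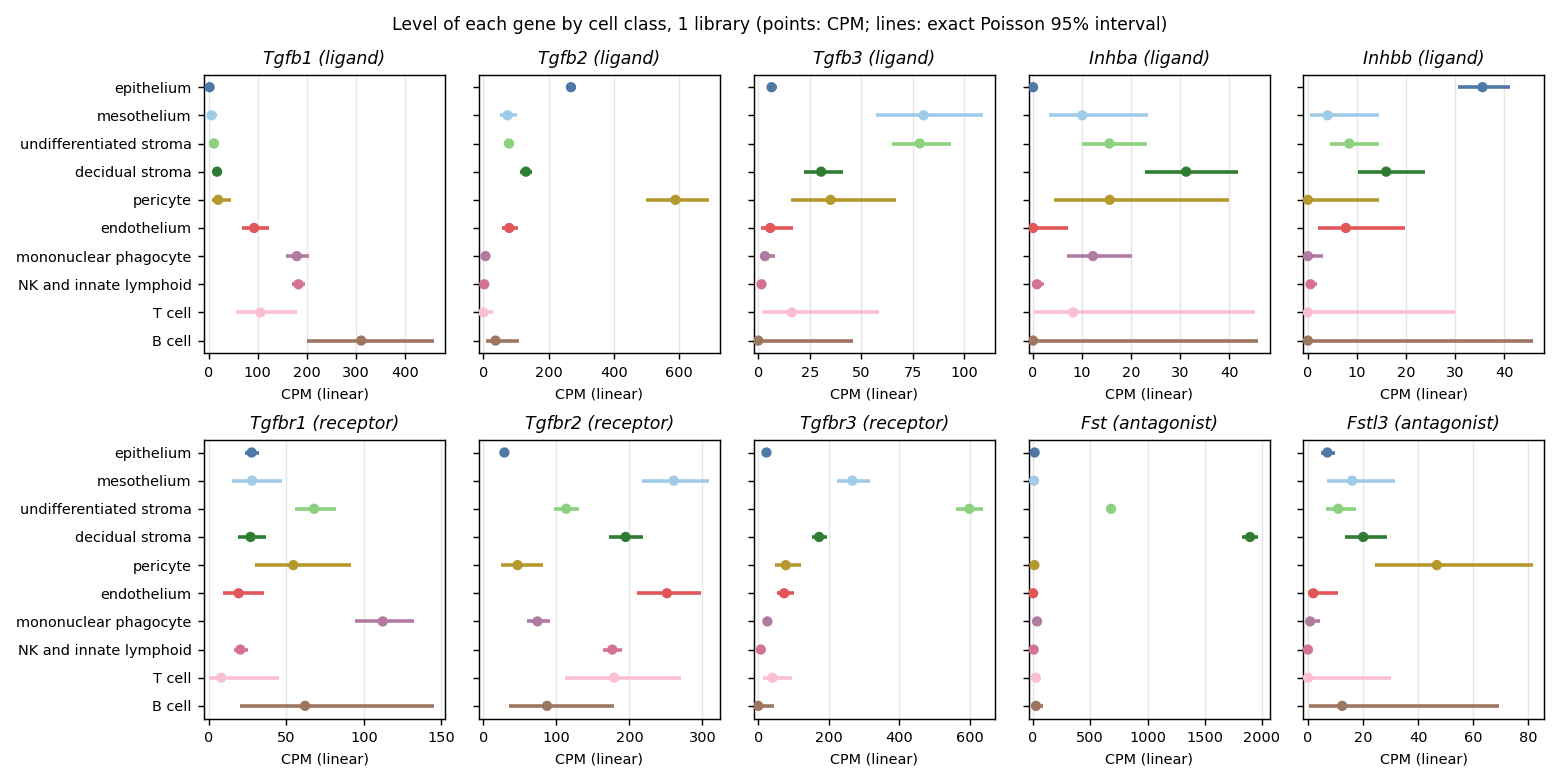
Level of each of the 10 genes (panels) in the 10 classes (y axis), in CPM on linear axes that start at 0 and differ between panels. Points are the summed level of a class and lines its exact Poisson 95% interval. Tgfb1 is high in immune and endothelial classes, Tgfb2 in pericytes and epithelium, and Inhbb in epithelium. Tgfbr3 is high in stroma and mesothelium, and Fst in stroma. The B and T cell classes rest on the fewest UMIs in all (80426 and 123032).

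On the receiving side, the type II receptor gene Tgfbr2 (chr9:116084293-116175360, minus strand) binds TGF-beta first and was the broadest of the 10. It stood at 261 CPM in mesothelium (218 to 309.6) and 251 CPM in endothelium (209.9 to 298), which did not differ (ratio 1.04, 0.807 to 1.33). Decidual stroma had 195 CPM (173 to 219), T cells 179 CPM and NK and innate lymphoid cells 176 CPM (163 to 190.2), and none of these neighbours could be told apart. Undifferentiated stroma had 113 CPM and phagocytes 74.0 CPM. Epithelium came last with 28.7 CPM (24.3 to 33.8). The class with most of the Tgfb2 UMIs was thus the one with the lowest Tgfbr2 level, 5.57-fold below all other named cells.

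Tgfbr1 (chr4:47353222-47414931, plus strand) encodes ALK5, the type I receptor kinase that passes the signal on. It stood at 112 CPM in phagocytes (94.3 to 133, 138 UMIs), 1.65-fold above undifferentiated stroma (1.27 to 2.15), which had 68.0 CPM. The B cell and pericyte classes lay near the latter with 62.2 and 54.6 CPM on 5 and 14 UMIs. The other 6 classes were at 8.13 to 28.1 CPM, and no neighbours among them differed beyond counting error. The order of Tgfbr1 was therefore not that of Tgfbr2: mesothelium and endothelium, highest for Tgfbr2, had 28.1 and 19.3 CPM of Tgfbr1.

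Tgfbr3 (chr5:107106570-107289629, minus strand) encodes betaglycan, a coreceptor that presents TGF-beta 2 to the type II receptor and also binds inhibin. It stood at 599 CPM in undifferentiated stroma (561 to 639, 925 UMIs), 267 CPM in mesothelium (223 to 316) and 173 CPM in decidual stroma (152 to 195). Pericytes and endothelium followed with 78.0 and 73.4 CPM. Every step from undifferentiated stroma down to pericytes was larger than the counting error. In epithelium it was 23.2 CPM, in NK and innate lymphoid cells 7.35 CPM, and in B cells 0 UMIs were found. Of the 32 phagocyte UMIs 19 lay in 1 cell, and that class was at 10.7 CPM without it. Undifferentiated stroma had a Tgfbr3 UMI in 73.6% of cells, at a median of 3304 UMIs, against 7.35% of NK and innate lymphoid cells at 5807 UMIs. The Tgfbr3 gene overlaps the same-strand gene models Gm43422, Gm43423 and Gm42900.

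Fst (chr13:114452290-114458951, minus strand) encodes follistatin, which neutralises activins, and was a gene of the stroma in this library. It reached 1896 CPM in decidual stroma (1825 to 1968, 2736 UMIs) and 681 CPM in undifferentiated stroma (640.5 to 723, 1052 UMIs). The next class, phagocytes, was 19.5-fold below undifferentiated stroma (14.4 to 27.1), with 35.0 CPM, and 15 of its 43 UMIs were in 1 cell. All other classes were at 24.9 CPM or less. Endothelium had 0 of 517366 UMIs, which allows up to 5.80 CPM. An Fst UMI was found in 131 of 148 decidual cells (88.5%, exact interval 82.2 to 93.2) and in 0 of 66 endothelial cells, which allows a share of up to 4.55%. The median depths of these 2 classes were close, at 6839.5 and 6739.5 UMIs. After thinning to 2000 UMIs the shares were 83.2% of 131 decidual and 63.8% of 312 undifferentiated cells.

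Fstl3 (chr10:79777272-79782630, plus strand), whose product also binds activins, was at 46.8 CPM in pericytes (24.2 to 81.7) on 12 UMIs. Decidual stroma had 20.1 CPM (13.5 to 28.9) and mesothelium 16.0 CPM, and no UMI was found in NK and innate lymphoid or T cells. It overlaps Prss57 on the opposite strand. At 105 UMIs in all it does not support a finer order.

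Set against all other named cells, the 10 classes gave 20 class and gene pairs that were higher and 37 that were lower. Undifferentiated stroma was higher for 5 members (Tgfb3, Inhba, Tgfbr1, Tgfbr3 and Fst), where 19.7% of 12180 genes compared were higher and 24.1% lower, and lower for Tgfb1 (7.29-fold). Decidual stroma was higher for 3, Inhba at 7.90-fold (5.18 to 12), Fst at 20.9-fold (19.5 to 22.4) and Fstl3 at 3.48-fold (2.19 to 5.41), against 9.4% of genes. It was lower for Tgfb1 (4.56-fold), against 24.6%. Mesothelium was higher for Tgfb3 (5.10-fold), Tgfbr2 (2.40-fold) and Tgfbr3 (2.66-fold), against 14.8% of genes, and lower for 3 members, against 16.4%. Epithelium was higher for Tgfb2 (4.56-fold, 4.13 to 5.04) and Inhbb (7.68-fold, 5.50 to 10.9), against 11.4%, and lower for 6 members, against 27.9%. NK and innate lymphoid cells were higher for Tgfb1 (5.38-fold, 4.74 to 6.12), against 11.8%, and lower for 8 of the 10, against 34.2%. Among these were Tgfb2 and Fst, 67.8-fold and 68.9-fold lower. Phagocytes were higher for Tgfb1 (2.85-fold) and Tgfbr1 (3.68-fold), against 10.9%, and lower for 6 members, against 29.9%. Pericytes were higher for Tgfb2 (4.75-fold) and Fstl3 (7.23-fold), against 10.8%, and lower for 4, against 11.7%. Endothelium was higher for Tgfbr2 (2.31-fold), against 13.7%, and lower for 2, against 15.1%, among them Fst at least 48.1-fold. The B cell class was higher for Tgfb1 (4.34-fold), against 8.47%, and lower for 3, against 6.33%. T cells were higher for none, against 7.9%, and lower for 3, against 8.05%. With cells thinned to 2000 UMIs 12 pairs were higher, and the ratios of Tgfbr2 in endothelium and Tgfbr3 in mesothelium were then 1.77 and 1.32. Tgfbr1 in undifferentiated stroma, at 2.02-fold, was below 2-fold in 4 alternatives (1.51 to 1.89).

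Pairs of genes were also counted cell by cell, with free RNA and undetected doublets not removed. Of the 19 decidual cells with an Inhba UMI, 17 also had an Fst UMI, close to the 131 of all 148 that did. In undifferentiated stroma it was 14 of 20 cells, where 277 of all 420 had an Fst UMI. A UMI of both receptor kinases, Tgfbr1 and Tgfbr2, was found in 16.2% of decidual cells (10.7 to 23.2), 14.4% of NK and innate lymphoid cells and 5.48% of undifferentiated stromal cells (3.50 to 8.10). Tgfbr2 and its coreceptor gene Tgfbr3 were found together in 49.4% of mesothelial, 41.9% of decidual, 33.3% of endothelial and 24.5% of undifferentiated stromal cells, and in 5.11% of NK and innate lymphoid cells and 1.53% of phagocytes, 2 classes with little Tgfbr3. These shares are not matched for depth.

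Decidual stroma differed from the undifferentiated stroma in 5 of the 7 members that could be compared. Of all 7466 genes compared, 8.76% were higher and 18.4% lower in decidual stroma (27.2% in either direction), with a median log2 ratio of -0.31 against 0.73 for the 7 members. Fst was higher 2.78-fold (2.59 to 2.99). Inhba, which encodes a subunit of its target, was higher 2.01-fold (1.20 to 3.44), on 45 and 24 UMIs. Of the 45 decidual Inhba UMIs 10 were in 1 cell. Without that cell the decidual level was 25.6 CPM, against 15.5 CPM in undifferentiated stroma. The coreceptor gene Tgfbr3 was 3.47-fold lower (3.01 to 4.01), the ligand gene Tgfb3 2.57-fold lower (1.81 to 3.72) and the type I receptor gene Tgfbr1 2.52-fold lower (1.73 to 3.73). Tgfb2 (1.66, 1.32 to 2.11) and Tgfbr2 (1.72, 1.42 to 2.09) had ratios above 1 that stayed under 2-fold. So the type II receptor gene and the other 2 receptor genes lay on opposite sides of 1. Tgfb1, Inhbb and Fstl3 had under 50 UMIs over both classes. The median mitochondrial share was 12.2% in decidual and 4.33% in undifferentiated cells. With cells of at most 10% mitochondrial UMIs Fst was 3.23-fold higher and Tgfbr3 4.03-fold lower, while the Inhba ratio was 1.20 with under 50 UMIs. Without the filters on cells the Inhba ratio was 1.56.

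The decidual clusters were also compared with each other. Cluster 1 (77 cells) was rich in Dio3, Bmp2 and Wnt4, with 1485 CPM for their sum, and cluster 17 (71 cells) was poor in them, with 65.4 CPM. Their median depths were 9510 and 5319 UMIs and their median mitochondrial shares 9.83% and 13.9%. Fst was at 1671 CPM in cluster 1 and 2379 CPM in cluster 17 (ratio 0.702, 0.650 to 0.759), both above the 524 and 731 CPM of the undifferentiated clusters 6 and 7. Without the filters on cells, where cells were clustered anew, it was 5.07-fold lower on the side rich in the 3 genes. Tgfbr3 was at 126 CPM in cluster 1, 273 CPM in cluster 17, and 502 and 629 CPM in clusters 6 and 7. It was 2.16-fold lower in cluster 1 than in cluster 17 (1.68 to 2.80), where 6.85% of 4261 genes were lower and 21.5% higher, and was the only 1 of 4 members compared that met the rule. It was 1.80-fold lower after thinning to 2000 UMIs and 1.30-fold lower on the rich side of the new clustering without the filters. With at most 10% mitochondrial UMIs, also clustered anew, this split gave no value. Tgfb3 was at 15.2 CPM (15 UMIs) in cluster 1 and 63.2 CPM (29 UMIs) in cluster 17, against 51.3 and 86.9 CPM in clusters 6 and 7. Against undifferentiated stroma it was 5.14-fold lower in cluster 1 (22.5% of all genes were lower and 10.9% higher), while its ratio was 0.807 (0.519 to 1.22) in cluster 17. Tgfbr1 was 3.19-fold lower in cluster 1 and its ratio was 0.578 (0.330 to 0.958) in cluster 17. Tgfbr2 was at 151 CPM in cluster 1 and 288 CPM in cluster 17, a ratio of 0.526 (0.413 to 0.669) that met the rule without the filters on cells (2.41-fold lower). Against undifferentiated stroma it was 2.54-fold higher in cluster 17 (2.01 to 3.20, where 4.07% of genes were higher and 20.7% lower) and had a ratio of 1.34 in cluster 1. Fst was thus more than 2-fold higher and Tgfbr3 more than 2-fold lower than undifferentiated stroma in either decidual cluster, and Tgfb3 and Tgfbr1 were past 2-fold in cluster 1 alone.

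**Figure D3:**
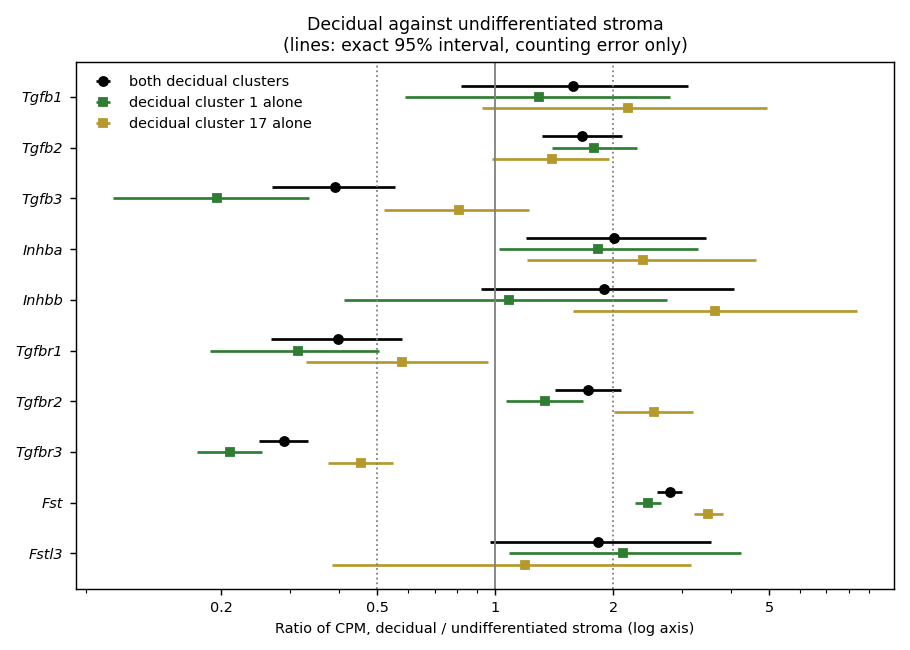
Ratio of CPM in decidual over undifferentiated stroma (x axis, log scale) for the 10 genes (y axis), with exact 95% intervals for counting error, for both decidual clusters together (circles) and for clusters 1 and 17 alone (squares). Dotted lines mark 2-fold. All 3 points of Fst lie to the right and all 3 of Tgfbr3 to the left of them, and Tgfb3 is 5.14-fold lower in cluster 1 but near 1 in cluster 17.

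The 5 epithelial clusters were divided by Prss28 and Prss29, serine proteases of the glands. Cluster 0 (54 cells, median 3877 UMIs) was rich in them, with 110392 CPM for their sum. Tgfb2 was at 126 CPM there and at 379, 243, 201 and 57.2 CPM in clusters 10, 9, 11 and 15. Cluster 0 was thus 2.25-fold below the other clusters together (1.73 to 2.96), and Tgfbr2 was 2.91-fold lower (1.22 to 9.10) on 5 UMIs, where 14.1% of 8272 genes were lower and 7.65% higher. Cluster 15, led by Lcn2 and Cxcl5, had a lower Tgfb2 level still, and the deepest cluster, 10 (median 24990 UMIs), the highest. Thinned to 2000 UMIs, the Tgfb2 ratio of cluster 0 to the others was 0.704, and with each cell given the same weight it was 0.626, neither of which meets the rule. The thinned ratio of Tgfbr2 was 0.879 on under 50 UMIs. Tgfb3 was at 27.3 CPM in cluster 0 and 4.31 CPM in the others on 33 UMIs in all, and Inhbb at 54.6 and 33.6 CPM, which was under 2-fold. With each cell given the same weight, a setting with no interval, the Inhbb ratio was 3.22.

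NK and innate lymphoid cells divided by the pregnancy-associated granzyme genes Gzmd to Gzmg. In the clusters rich in them (8 and 18) Tgfb1 was at 158 and 142 CPM, and in cluster 2, which was poor in them, at 328 CPM. The rich clusters were 2.17-fold lower (1.85 to 2.55), where 13.9% of 7004 genes were lower and 16.8% higher. Cluster 18 led with histone and mitosis genes. The median depths were 14947.5 and 30559 UMIs in the rich clusters and 3745 in cluster 2. After thinning to 2000 UMIs Tgfb1 was 2.43-fold lower in the rich clusters, and at a finer clustering (resolution 2) it was 1.35-fold lower. Tgfbr1 was 2.14-fold lower (1.27 to 3.51), at 17 against 36.3 CPM, 1.76-fold lower at the finer clustering and 1.42-fold lower with each cell given the same weight. Tgfbr2 hardly moved, at 169.7 and 206 CPM (ratio 0.822, 0.682 to 0.997).

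Among the phagocytes the genes of both receptor kinases were higher in macrophage-like cluster 13, which was rich in the complement genes C1qa, C1qb and C1qc. Tgfbr1 was at 181 CPM in that cluster against 55.0 CPM in monocyte-like cluster 3 and dendritic-like cluster 4 together (3.30-fold, 2.25 to 4.95). Tgfbr2 was at 109.6 against 44.6 CPM (2.46-fold, 1.56 to 3.95), where 6.89% of 3832 genes were higher and 9.58% lower. Tgfbr3 had 1 UMI in cluster 13 and 31 in the others, too few to compare, at 1.80 against 46.0 CPM. At resolution 2 the Tgfbr1 ratio was 5.06. The ligand gene Tgfb1 was at 201, 228 and 45.0 CPM in clusters 13, 3 and 4. Clusters 13 and 4 had median depths of 5972 and 9295 UMIs, so the lowest Tgfb1 level was in the deepest of the 3 clusters. At resolution 0.5 Tgfb1 was 4.36-fold higher on the C1q-rich side. The class of phagocytes held no Inhbb UMI in any of its clusters.

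**Figure D4:**
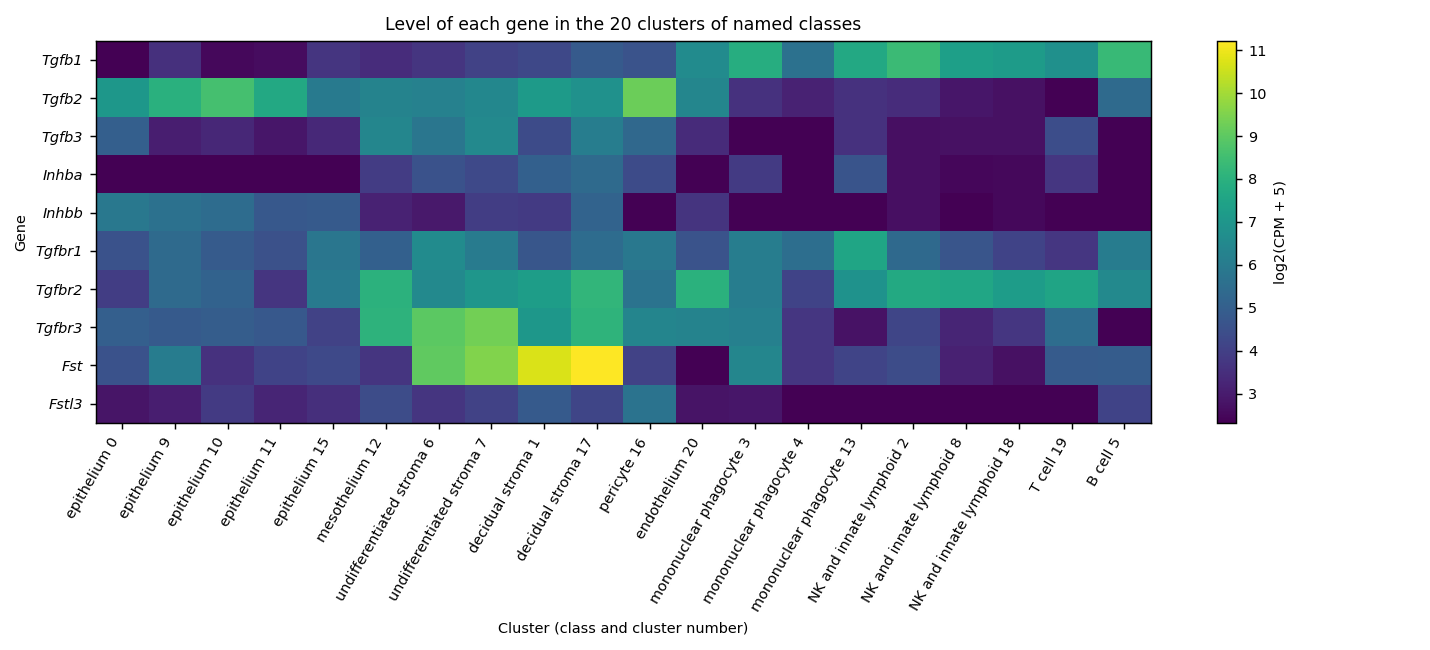
Level of the 10 genes (rows) in the 20 clusters of named classes (columns, with class and cluster number), as log2(CPM + 5) by colour. Fst is brightest in decidual clusters 1 and 17, Tgfb2 in pericyte cluster 16 and epithelial cluster 10, and Tgfbr1 in phagocyte cluster 13, while Tgfb1 is dark in all 5 epithelial clusters.

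The other genes of the pathway were followed as 5 lists with 52 genes. Of 10 further ligand genes only Gdf11 had 50 UMIs, and Nodal, Mstn, Inhbc, Gdf1 and Lefty2 had none. Of 9 further receptor genes 7 could be compared between classes. Endothelium was higher for 5 of these, where 13.7% of genes were higher, led by Eng (519.9 CPM, 87.3-fold, 68.1 to 113) and Acvrl1 (147 CPM, 29.6-fold, 21.1 to 41.6), which encode endoglin and ALK1, the TGF-beta and BMP coreceptor and type I receptor of vessels. Epithelium was higher for Acvr1b, the type I activin receptor gene (33.2 CPM, 5.01-fold, 3.73 to 6.80). NK and innate lymphoid cells were lower for all 7, where 34.2% of genes were lower.

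The 15 genes of latency and activation, 14 of them compared, were spread over the classes, with overlap. Undifferentiated stroma was higher for 6 of the 14, where 19.7% of all genes were, led by Ltbp1 (3.09-fold) and Itgb3 (2.99-fold). It was lower for 3, against 24.1%. Mesothelium was higher for Ltbp4, which encodes a protein that tethers latent TGF-beta to the matrix (876 CPM, 29.5-fold, 25.8 to 33.9), and endothelium was higher for Lrrc32, whose product GARP holds latent TGF-beta at the cell surface (118 CPM, 25.6-fold). Nrros, which does the same in myeloid cells, was 17.5-fold higher in phagocytes (319.5 CPM, 14.9 to 20.6). Phagocytes were higher for 3 of the 14, against 10.9% of all genes, and lower for 8, against 29.9%. Pericytes were higher for Ltbp1 (179 CPM, 26.8-fold). Epithelium was higher for Itgb6 (22.5 CPM, 30.5-fold), which encodes the integrin subunit that releases TGF-beta in epithelia, and for the convertase gene Pcsk6 (102.6 CPM, 22.7-fold). Decidual stroma was higher for 2 of the 14, against 9.4% of all genes, and lower for 9, against 24.6%. The higher ones were Fbn1 (359.6 CPM, 17.6-fold, 15.2 to 20.5), the fibrillin gene of the microfibrils that anchor the latent complex, and Itgb5, and both were also among the 6 higher in undifferentiated stroma. Set against undifferentiated stroma, decidual stroma was higher for Fbn1 (3.45-fold, 2.89 to 4.14) and lower for 4 of 9 compared, where 18.4% of all genes were lower, led by Itgb8 (7.25-fold, 4.91 to 11.1) and Ltbp4 (3.83-fold).

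Of 12 intracellular genes, 10 were compared between the stromal classes. Smad6, an inhibitory SMAD that acts mainly on the BMP branch, was higher in decidual stroma (74.1 against 14.9 CPM, 4.98-fold, 3.15 to 8.19), and Tgif1 (3.53-fold), Smad4 (2.35-fold) and Ski were lower. The median log2 ratio of the 10 was -0.43, near that of all genes. None of 3 response genes that could be compared (Tgfbi, Ccn2 and Pmepa1) passed 2-fold between the stromal classes. Their ratios were 0.616, 1.77 and 1.12. Between the decidual clusters 2 of 3 response genes compared were lower in cluster 1, where 6.85% of all genes were lower and 21.5% higher. These were Ccn2 (7.13-fold, 4.63 to 11.3) and Pmepa1 (3.1-fold). In the epithelium 2 of 4 response genes compared were higher in cluster 0 (Tgfbi 3.02-fold and Ccn2 2.51-fold), against 7.65% of all genes, and 2 lower (Pmepa1 among them, 3.90-fold), against 14.1%. In NK and innate lymphoid cells 5 of 7 intracellular genes compared were lower in the granzyme-rich clusters, where 13.9% of all genes were lower, led by the inhibitory SMAD gene Smad7 (60.2 against 408 CPM, 6.78-fold, 5.62 to 8.20) and Tgif1 (4.18-fold), as was the response gene Pmepa1 (4.54-fold, 3.75 to 5.50). These genes and Tgfb1 were thus lower in the same clusters, and a link between them was not tested. Phagocytes were higher for 3 of 6 response genes, against 10.9% of all genes, led by Itgae (83.7 CPM, 40.1-fold), a dendritic cell integrin gene and a leading gene of cluster 4, and by Tgfbi (360.2 CPM, 5.01-fold).

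For the 8 members with at least 200 UMIs, the genes with the most similar pattern over the 20 clusters were listed by Pearson's r of log2(CPM + 5) among 8453 genes. The clusters share 1 library and differ in depth, so r is a description. Fst was closest to Pdgfra (0.97), the receptor gene that marks stroma, followed by Sfrp4 and Mfap5 (0.95 each). Tgfbr3 was closest to Ston1 (0.93), Tgfb1 to Dusp2 (0.93) and Fli1 (0.92), Tgfb2 to Lzts2 (0.91), Inhbb to the tight junction gene Cldn3 (0.91), and Tgfb3 to Mertk (0.89). The receptor kinase genes had less similar partners, Nab2 for Tgfbr2 (0.81) and Marcksl1 for Tgfbr1 (0.80). Pdgfra and Cldn3 are among the markers that named the stromal and epithelial clusters.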

How the data were processed

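The authors deposited 1 sparse matrix of raw UMI counts, made with version 4.0.0 of Cell Ranger per the file headers. Libraries used the v3.1 3' kit, per the labels' protocols. Per the submitters' processing notes the genome was mm10. The sources used here do not give the annotation release or how cells were called. The matrix held 16848794 UMIs over 2775 barcodes and 32287 features, of which 40 shared a symbol and were summed.

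Cells were kept with at least 500 genes and at most 20% mitochondrial UMIs (1825 barcodes). Scrublet marked 3 of these (0.164%) and they were removed. The tool was set to expect 5%. Whether it missed doublets was not tested, and doublets may remain. The 953 barcodes removed held 2159426 UMIs, with Fst at 397 CPM against 268 CPM in kept cells. Each cell was brought to 10000 counts before the logarithm. Clustering with scanpy 1.11.5 (Python 3.11.15) used 2000 variable genes, 30 components, 15 neighbours and Leiden resolution 1, without the members and pathway lists, and gave 21 clusters. Clusters were named from 140 markers in 19 sets. A cluster needed 3 markers in at least 10% of its cells, and one with a median depth under the library median divided by 3 also needed a marker among its leading genes. A cluster was rich in the genes that split a class where their summed CPM was above that of its class.

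Levels, ratios and shares have exact Poisson, conditional binomial and Clopper-Pearson intervals, and a limit of 3 counts where 0 were found. They cover counting error only. For thinned shares shallower cells were left out. The ratio code was tested on simulated counts. Coordinates are from GENCODE M21 and promoters from RefSeq (GRCm38.p6). The members, lists, markers and splits were chosen with earlier results of these data known. Of each pathway list, at most the 2 highest and 2 lowest ratios that met the rule are named in a comparison, apart from Ski and genes without UMIs, named after their values were seen.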

Additional observations from a re-analysis of the deposited data

Results flagged for a closer look

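The 37 cells that stayed unnamed are outside the comparisons of the named classes, and they held UMIs of some members. Tgfb1 was at 106 CPM (42.8 to 219, 7 UMIs) and Tgfbr2 at 91.1 CPM (33.4 to 198, 6 UMIs). Both intervals reach below the limit that a count of 0 allows in this cluster (45.6 CPM). The cluster led with Igf2bp1, H19, Hand1 and Igf2, its summed NK markers were at 5165 CPM, and its median depth was 1260 UMIs. The part of these in the 2 values was not tested. Tgfb2, Tgfb3, Inhbb, Tgfbr3 and Fstl3 had 0 UMIs there.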

How the results depend on the processing

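Over 13 alternative settings 778 values of single members were compared that met the rule in the reported setting, the alternative or both. Of these 679 kept their direction and side of the rule, 54 no longer met it, 44 newly met it, and no called value changed direction. Values with too few UMIs to be compared in a setting are not among the 778, so calls lost that way are not counted. With no minimum of UMIs no call could be lost. Fst in the Prss28-rich epithelium, not called before, went from a ratio of 1.49 to 0.133 without the filters on cells. Of the 2 members higher in decidual stroma, 1 met the rule at 10% mitochondrial UMIs, with no filter, with thinned cells, at 200 UMIs and in cluster 1 alone, and 0 at 3-fold. In cluster 17 alone 2 members were higher, Fst and Tgfbr2 in place of Inhba. Of the 3 lower, 1 did at 200 UMIs, at 3-fold and in cluster 17 alone. Of 20 class and member pairs that were higher, 12 were higher with thinned cells. Inhba and Fstl3 in decidual stroma, Inhba in undifferentiated stroma, Inhbb in epithelium and Fstl3 in pericytes were then not compared. They had under 50 UMIs, with ratios from 1.39 to 15.2. Pairs higher in the splits (2) came to 0 with thinned cells and at 200 UMIs and to 1 at 3-fold. With thinned cells both, Tgfbr1 and Tgfbr2 in C1q-rich phagocytes, had under 50 UMIs, at ratios of 5.51 and 3.30. Pairs lower in the splits (5) came to 9 with no filter, 10 with no minimum of UMIs, 3 at resolution 2, at 200 UMIs and with each cell's own CPM averaged (a rule with no interval), 1 with thinned cells and 0 at 3-fold. A higher minimum or fold by its construction calls fewer, and so does thinning where it takes a gene under 50 UMIs. The cause of the other changes was not tested.

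The class with the highest level was the same in 8 of 8 settings that can change a level for Tgfb2, Inhba, Inhbb, Tgfbr3 and Fst and in 7 of 8 for the other members. Of 40 alternative values of those levels 26 stayed within the counting interval and 14 did not. The alternatives included the lowest and the highest cluster of the class. For Tgfb1, Tgfb2, Tgfb3, Tgfbr2 and Fstl3 the class had 1 cluster. Their cluster values equalled the reported level by construction and are among the 26. Leaving out the 1 cell with most UMIs of the gene, an alternative chosen after seeing the data, moved Tgfb2 in pericytes from 589 to 406 CPM. No paired analysis was possible because there was 1 library and no test. Depth limits Inhba, Inhbb and Fstl3 and the T, B and pericyte classes.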
